A study of Rattus norvegicus with 6 samples.

Results

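The basement membrane and short-chain collagens described here are the 8 genes Col4a1, Col4a2, Col4a5, Col8a1, Col8a2, Col12a1, Col15a1 and Col18a1, of 14217 rat genes named by a probe set of their own in the table. They were found as every probe set that the platform annotation assigns to a single one of these symbols, which gave 13 probe sets. Of these, 11 passed a filter on low signal, and each gene kept at least 1. The samples came from 3Y1, an embryonic fibroblast line of the rat, and were measured on 6 Affymetrix arrays in 3 groups of 2 replicates that the labels call biological, so p-values measure only the spread between these arrays. MUC1-CD tumors were 3Y1 cells stably transfected with MUC1-CD, the part of the mucin MUC1 inside the cell, and grown under the skin of the hindlimbs of female athymic mice. MUC1-CD cultures were the same transfected cells grown in dishes, and Vector cultures were 3Y1 cells stably transfected with the empty vector. The labels used here do not say whether a line is a clone or a pool, nor how old the mice were, so differences between the lines that are not due to the domain cannot be told apart from it. Tumors were frozen and homogenized, and their RNA was purified over columns as well as with TRIzol, so the way RNA was prepared cannot be told apart from growth in the animal.

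Collagens are proteins whose chains wind around each other into a helix and assemble into fibrils, nets or linkers in the extracellular matrix. Type IV collagen, the product of the Col4 genes, forms the net of the basement membrane, the thin sheet under epithelia and around vessels, muscle fibres and fat cells. Col8a1 and Col8a2 encode the short chains of type VIII collagen, which builds hexagonal lattices in vessel walls and under the corneal endothelium. The members differ in kind: Col12a1 encodes a collagen that sits on the surface of collagen I fibrils and is neither a short chain nor a basement membrane component, and Col15a1 and Col18a1 encode the multiplexins, proteoglycans of basement membrane zones whose interrupted helices end in endostatin-like domains. Fibroblasts make part of the basement membrane of their neighbours, and in tumors vessels, muscle and stroma of the host also carry these collagens.

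Signals are the deposited MAS5 intensities on a linear scale. Changes are given as log2(signal + 16) in one group minus that in the other, each with limma's standard error (SE). The added 16 makes changes of dim genes look smaller than they are, and signals are not compared between probe sets. "Rose" and "fell" are used of changes with a limma adjusted p under 0.05, adjusted by Benjamini-Hochberg over 18625 probe sets. The 3' to 5' signal ratio of Gapdh, a measure of RNA integrity, was 1.11 and 1.14 on the tumor arrays and 1.18 and 1.11 on the MUC1-CD culture arrays, against 11.5 and 17.8 on the Vector arrays. The same ratio of beta-actin was 3.25 and 2.97 in tumors and 3.37 and 3.28 in MUC1-CD cultures, against 4.15 and 41.7 in Vector cultures, so by this measure Vector replicate 1 was close to the other groups and replicate 2 stood apart. The part of RNA integrity in the differences from Vector was not tested. All 7 fibroblast markers (Vim, Col1a1, Col1a2, Thy1, Fn1, S100a4 and Pdgfrb) exceeded the filter level of 61.6 on at least 1 array of each group, and their summed signal was 80674 to 83509 in tumors, 69978 to 71848 in MUC1-CD cultures and 89828 to 95369 in Vector cultures.

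MUC1-CD cultures were set against Vector cultures to ask which of these genes go with the MUC1 domain outside an animal. Of the 8 genes, 4 rose and 3 fell, where 46.1% of 10037 genes passed the test (21.2% higher and 24.9% lower). The members went in opposite directions: Col18a1, Col8a1 and Col15a1 rose by 4.84, 4.49 and 3.96 on the log2 scale, Col8a2 changed by -5.58 and Col12a1 by -2.28, and the changes of the type IV genes lay between -0.63 and 0.45. The median change over the 8 genes was 0.32, against -0.04 over all genes. Of the 11 kept probe sets 7 rose and 3 fell, where 45.8% of 18625 probe sets passed (25.0% higher and 20.7% lower). Tumors were then compared with MUC1-CD cultures to ask what goes with growth in the animal, and here 4 genes rose and 2 fell, where 18.8% of genes passed (9.82% higher and 8.97% lower). In tumors Col8a2, Col15a1, Col12a1 and Col4a1 rose, Col4a5 and Col8a1 fell, and the median change was 0.66, against 0.03 over all genes. Of the kept probe sets 5 rose and 2 fell, where 15.8% passed (8.54% higher and 7.31% lower). Both comparisons use the MUC1-CD culture arrays, so opposite changes in them are not independent. With any tumor or MUC1-CD culture array left out, 1 gene rose (Col8a2) and 1 fell (Col4a5), and without either Vector array 5 rose and 2 fell.

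**Figure D1:**
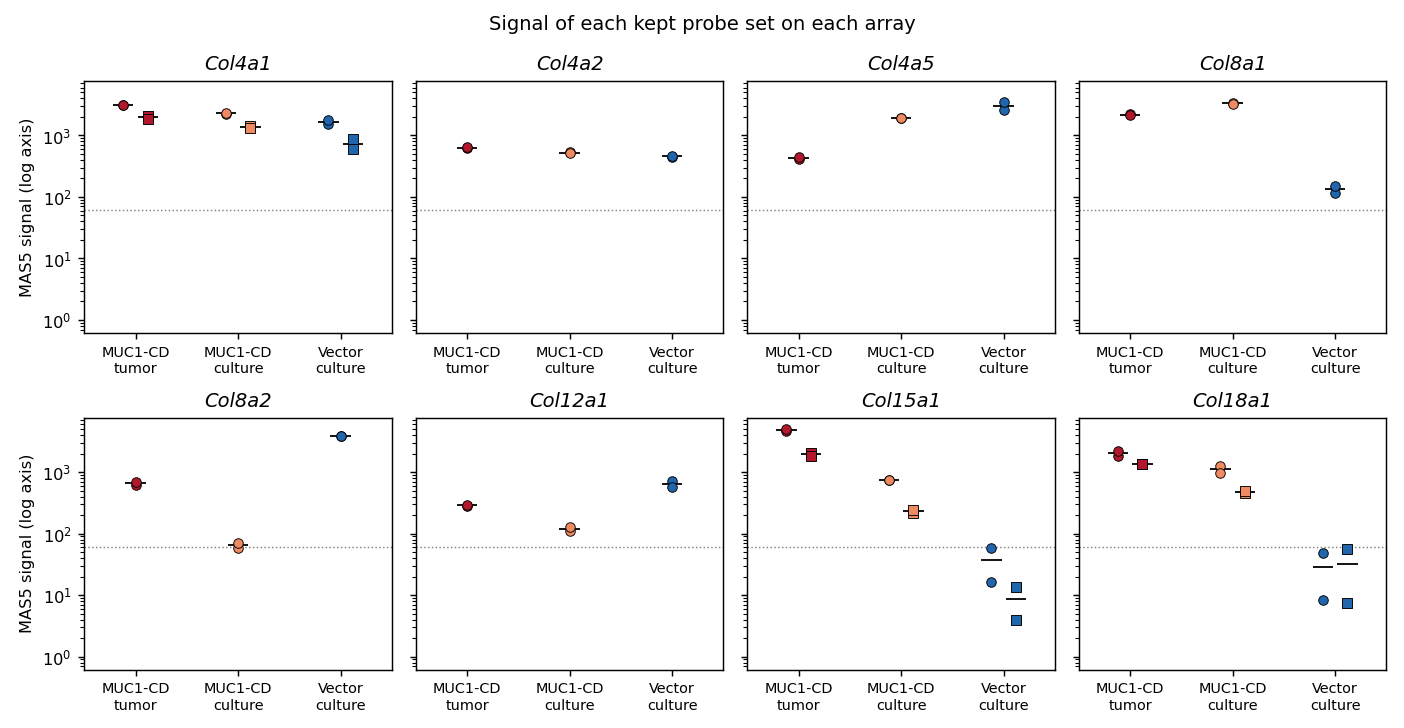
MAS5 signal (log axis) of each kept probe set of the 8 genes on every array, with points for the arrays, short bars for the mean of 2 arrays, squares for a gene's other probe set and a dotted line at the filter level of 61.6. Col8a1 and Col8a2 stand in opposite order in MUC1-CD and Vector cultures, and Col15a1 and Col18a1 lie below the dotted line on both Vector arrays.

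Type IV collagen begins with Col4a1 and Col4a2, whose products form the common trimer of basement membranes. The genes lie head to head on chromosome 16 of the GRCr8 assembly, with starts 77 bases apart in RefSeq. The bases between both starts are shown because they are the stretch that both genes share as a promoter, with matches to GGGCGG (the GC box, on either strand) in capitals, at chr16:84885521-84885596 on the plus strand, 5' to 3' from the Col4a2 start to the Col4a1 start.
Col4a2-Col4a1: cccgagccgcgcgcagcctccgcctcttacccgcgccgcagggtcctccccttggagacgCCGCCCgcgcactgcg
This stretch of 76 bases was 78.9% G and C, against a median of 53.9% over the 76 bases before the start of 33465 rat promoters. It held 1 GGGCGG match, on the other strand, 11 to 16 bases before its printed end. The share of those promoters with a match was 18.1%. CCAAT, which 13.0% of them held, TATAAA (4.61%) and TGANTCA (1.80%), the AP-1 motif, were searched for on both strands and not found in these letters.

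Col4a1 had signals of 2245 and 2334 in MUC1-CD cultures, against 1543 and 1801 in Vector cultures. Both MUC1-CD arrays were higher than both Vector arrays, and the gene rose by 0.45 ± 0.12 (log2 change ± SE, limma adjusted p = 0.0190). Its other probe set had 1433 and 1303 in MUC1-CD cultures against 860 and 612 in Vector cultures, a rise of 0.90 ± 0.18 (limma adjusted p = 0.00795). Tumors had 3170 and 3178 at the main probe set, above both MUC1-CD cultures, and the gene rose by 0.47 ± 0.12 (limma adjusted p = 0.0405). The other probe set had 2097 and 1839 in tumors, also above both cultures, with a change of 0.52 ± 0.18 that was not called (limma adjusted p = 0.109). These small changes depended on the scaling: with each array divided by its median, the change of Col4a1 was 0.13 in culture against Vector (limma adjusted p = 0.420) and 0.20 in tumors against culture (limma adjusted p = 0.309). With a tumor or MUC1-CD culture array left out, neither change was called (limma adjusted p = 0.056 to 0.135 against Vector and 0.213 to 0.264 in tumors against culture).

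Col4a2 had the narrowest range of signals of the 8 genes' main probe sets. It had 617 and 645 in tumors and 529 and 510 in MUC1-CD cultures, against 451 and 462 in Vector cultures. The arrays of the 3 groups did not overlap. The change was 0.18 ± 0.14 in MUC1-CD culture against Vector (95% interval -0.14 to 0.50, limma adjusted p = 0.317) and 0.27 ± 0.14 in tumors against MUC1-CD culture (95% interval -0.05 to 0.60, limma adjusted p = 0.222), and neither was called. Tumors against Vector gave a rise of 0.45 ± 0.14 (limma adjusted p = 0.0293), which became -0.13 with division by the array median and was not called without any 1 tumor or MUC1-CD culture array (limma adjusted p = 0.0794 to 0.156). That scaling moved the median change of all kept probe sets to -0.24 in culture against Vector, to -0.21 in tumors against culture and to -0.45 in tumors against Vector, where the deposited scaling gave 0.07, 0.05 and 0.12.

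Col4a5, on chromosome X, encodes a chain of the type IV trimers found in kidney, lung, skin and smooth muscle, and its loss causes Alport syndrome in humans. It went the other way from Col4a1 in both steps. MUC1-CD cultures had signals of 1896 and 1938, against 2565 and 3459 in Vector cultures, which differed from each other by more than the MUC1-CD arrays did. The gene fell by 0.63 on the log2 scale (SE 0.16, limma adjusted p = 0.0192), a call that was lost without MUC1-CD culture replicate 1 or 2 (limma adjusted p = 0.114 and 0.106). Tumors had 414 and 440, the lowest of the 3 groups and 0.223 times the MUC1-CD culture mean, a log2 change of -2.13 ± 0.16 (limma adjusted p = 0.000542). It was rank 53 from the lowest change among 10037 genes in that comparison. Tumors against Vector gave -2.76 ± 0.16 (limma adjusted p = 5.41e-05).

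The type VIII genes moved in opposite directions. Col8a1 had signals of 3427 and 3302 in MUC1-CD cultures, against 118 and 152 in Vector cultures, a ratio of the means of 24.9. Col8a2 had 59.0 and 70.6 in MUC1-CD cultures, against 3816 and 3856 in Vector cultures, a ratio of 0.0169. Each gene was thus high on both arrays of the line in which the other was low. Col8a1 rose by 4.49 ± 0.15 (limma adjusted p = 1.18e-05), rank 38 from the highest change among 10037 genes. Col8a2 changed by -5.58 ± 0.15 (limma adjusted p = 6.19e-06), rank 5 from the lowest. Both calls held under every alternative setting that was run.

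In tumors both type VIII genes had signals between those of the cultures. Col8a1 had 2199 and 2159, below both MUC1-CD cultures, and fell by 0.62 on the log2 scale (SE 0.15, limma adjusted p = 0.0344). This call was lost with quantile normalization (-0.56, limma adjusted p = 0.0507) and with any tumor or MUC1-CD culture array left out (limma adjusted p = 0.206 to 0.246). Col8a2 had 622 and 694 in tumors, above both MUC1-CD cultures and below both Vector cultures. It rose by 3.06 ± 0.15 against MUC1-CD culture (limma adjusted p = 0.000147), 10.2 times the culture mean. Against Vector, tumors still had Col8a1 higher by 3.87 ± 0.15 (limma adjusted p = 1.27e-05), and Col8a2 at -2.52 ± 0.15 (limma adjusted p = 5.42e-05).

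The 120 bases before the RefSeq start of both type VIII genes are shown because the genes moved apart; both are read 5' to 3' on the plus strand of GRCr8, Col8a1 at chr11:56246662-56246781 and Col8a2 at chr5:143870649-143870768, with GGGCGG matches on either strand in capitals.
Col8a1: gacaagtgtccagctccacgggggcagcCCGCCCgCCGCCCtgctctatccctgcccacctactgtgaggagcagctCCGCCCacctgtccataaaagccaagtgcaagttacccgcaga
Col8a2: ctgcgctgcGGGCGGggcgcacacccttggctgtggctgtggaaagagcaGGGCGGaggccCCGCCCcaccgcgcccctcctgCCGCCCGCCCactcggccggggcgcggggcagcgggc
Col8a1 held 3 GGGCGG matches and Col8a2 held 5, of which the last 2 overlap, and 23.7% of 33465 promoters held at least 1 in this window. RefSeq annotates another Col8a1 start further upstream. The Col8a2 stretch was 81.7% G and C and that of Col8a1 64.2%, against a median of 53.3%. CCAAT (in 19.9% of promoters), TATAAA (6.66%) and TGANTCA (3.02%) were not found in either.

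Col12a1 encodes the type XII collagen of fibril surfaces, made by fibroblasts of dense connective tissue. Its kept probe set had signals of 111 and 126 in MUC1-CD cultures, against 713 and 564 in Vector cultures. The MUC1-CD arrays lay well below the Vector arrays, with a log2 change of -2.28 ± 0.18 (limma adjusted p = 0.000203). Tumors had 280 and 295, between both culture groups, and the gene rose by 1.18 ± 0.18 against MUC1-CD culture (limma adjusted p = 0.00825, and 0.0688 to 0.0948 with any array of these groups left out). Against Vector the tumors changed by -1.10 ± 0.18 (limma adjusted p = 0.00291). The other 2 probe sets were below the filter and were not tested. One had 93.4 and 65.3 in tumors, 6.0 and 16.2 in MUC1-CD cultures, and 36.0 and 46.6 in Vector cultures. It was thus lowest in MUC1-CD cultures as well, but was higher in tumors than in Vector cultures, where the kept probe set was lower. The last had signals of 11.0 and 3.9 in tumors, 5.7 and 3.4 in MUC1-CD cultures, and 2.0 and 8.2 in Vector cultures, and its groups overlapped.

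**Figure D2:**
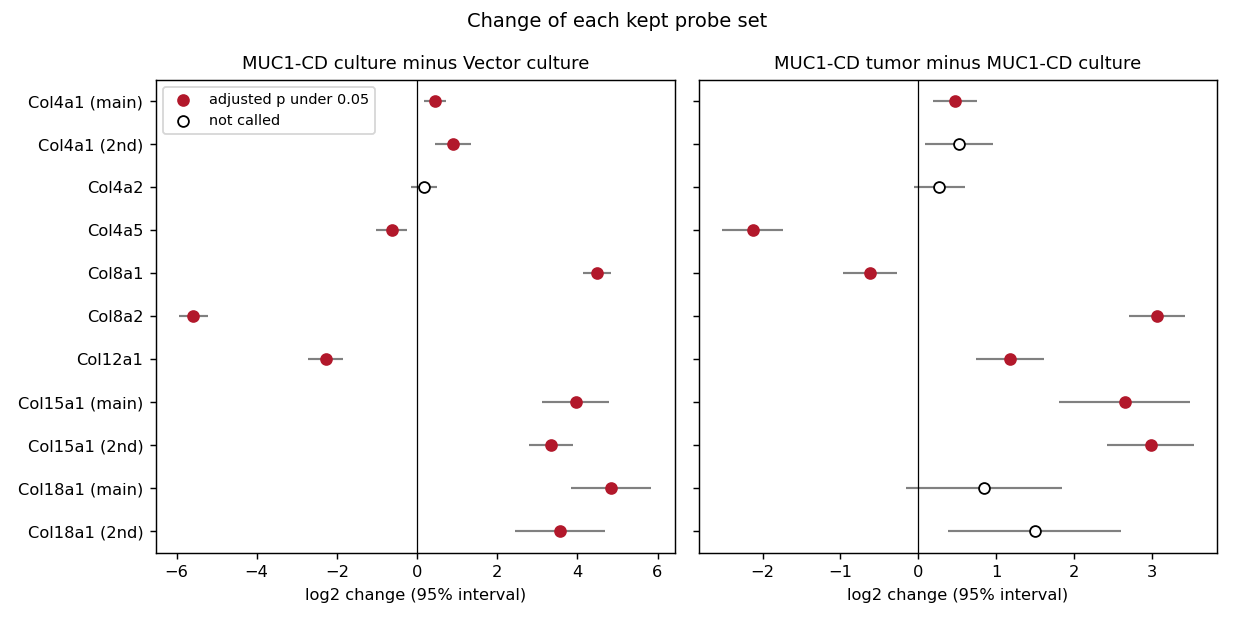
Log2 change (x axis, with its 95% interval from limma) of each kept probe set, with filled points for an adjusted p under 0.05 and open points for the rest. Probe sets of Col4a1, Col15a1 and Col18a1 point the same way within each gene, and Col4a2 has intervals that include 0 in both comparisons.

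The multiplexin genes rose together in culture. Col15a1 encodes type XV collagen, which ties basement membranes to the matrix beneath, and had signals of 740 and 757 in MUC1-CD cultures, against 16.6 and 58.3 in Vector cultures. Col18a1 encodes type XVIII collagen, the source of endostatin, and had 1264 and 987 in MUC1-CD cultures, against 48.2 and 8.5 in Vector cultures. All Vector signals of both genes were below the filter level of 61.6, and no detection calls were used here, so the size of their change depends on the value added before the log and on the Vector array. Both genes passed the filter only through tumor and MUC1-CD culture signals, a selection that favored a lower signal in Vector cultures. On the log2 scale Col15a1 rose by 3.96 ± 0.35 (limma adjusted p = 0.000299), with 3.03 to 4.55 over the alternatives. Col18a1 rose by 4.84 ± 0.42 (limma adjusted p = 0.000279), with 3.71 after adding 64 and 5.69 after adding 1. Without Vector replicate 1 or 2 the change was 3.36 or 4.55 for Col15a1 and 5.53 or 4.14 for Col18a1. The other probe set of each also rose, by 3.35 ± 0.23 for Col15a1 (limma adjusted p = 0.000126) and 3.57 ± 0.47 for Col18a1 (limma adjusted p = 0.00131).

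Col15a1 was higher still in tumors. Its main probe set had 4598 and 4996 in tumors, 6.41 times the MUC1-CD culture mean and above every culture array. The gene rose by 2.65 ± 0.35 (limma adjusted p = 0.00462), rank 145 from the highest change, but was not called with any array of these groups left out (limma adjusted p = 0.0521 to 0.0613). The other probe set had 2078 and 1815 in tumors against 220 and 242 in MUC1-CD cultures, a rise of 2.99 ± 0.23 (limma adjusted p = 0.000561). Against Vector, where its signals were below the filter level, the change was 6.61 ± 0.35 (limma adjusted p = 3.79e-05), with 5.61 to 7.21 over the alternatives and 6.02 or 7.20 without Vector replicate 1 or 2.

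Col18a1 had 1850 and 2197 in tumors, above both MUC1-CD cultures. Its change of 0.84 ± 0.42 was not called (95% interval -0.16 to 1.85, limma adjusted p = 0.224). The spread in this fit includes the Vector arrays, which had 48.2 and 8.5. With only the tumor and MUC1-CD culture arrays in the fit, the same change of 0.84 was called (limma adjusted p = 0.000309), as it was without Vector replicate 1 or 2 (limma adjusted p = 0.000648 and 0.000529). The other probe set had 1369 and 1352 in tumors against 460 and 485 in MUC1-CD cultures, 1.50 ± 0.47 (limma adjusted p = 0.0778). Tumors against Vector gave a rise of 5.68 ± 0.42 (limma adjusted p = 0.000113), again against signals below the filter level, with 4.53 to 6.54 over the alternatives and 6.37 or 4.98 without Vector replicate 1 or 2.

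The 120 bases before the RefSeq start of both multiplexin genes, shown because the genes rose together in culture, are on the plus strand of GRCr8 at chr5:66297426-66297545 for Col15a1 and chr20:11473525-11473644 for Col18a1, again with GGGCGG matches in capitals.
Col15a1: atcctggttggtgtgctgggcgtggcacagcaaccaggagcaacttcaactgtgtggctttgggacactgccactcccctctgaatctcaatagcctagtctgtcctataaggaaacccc
Col18a1: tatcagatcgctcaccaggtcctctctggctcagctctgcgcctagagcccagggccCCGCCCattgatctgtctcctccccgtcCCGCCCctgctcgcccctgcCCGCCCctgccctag
Col18a1 held 3 GGGCGG matches, and these letters were not found in the Col15a1 stretch. The other motifs, CCAAT with TATAAA and the AP-1 motif, were not found in either stretch. G and C made up 54.2% of the Col15a1 stretch and 69.2% of that of Col18a1. Only a single annotated start per gene was used here, and which start the cells used was not tested.

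**Figure D3:**
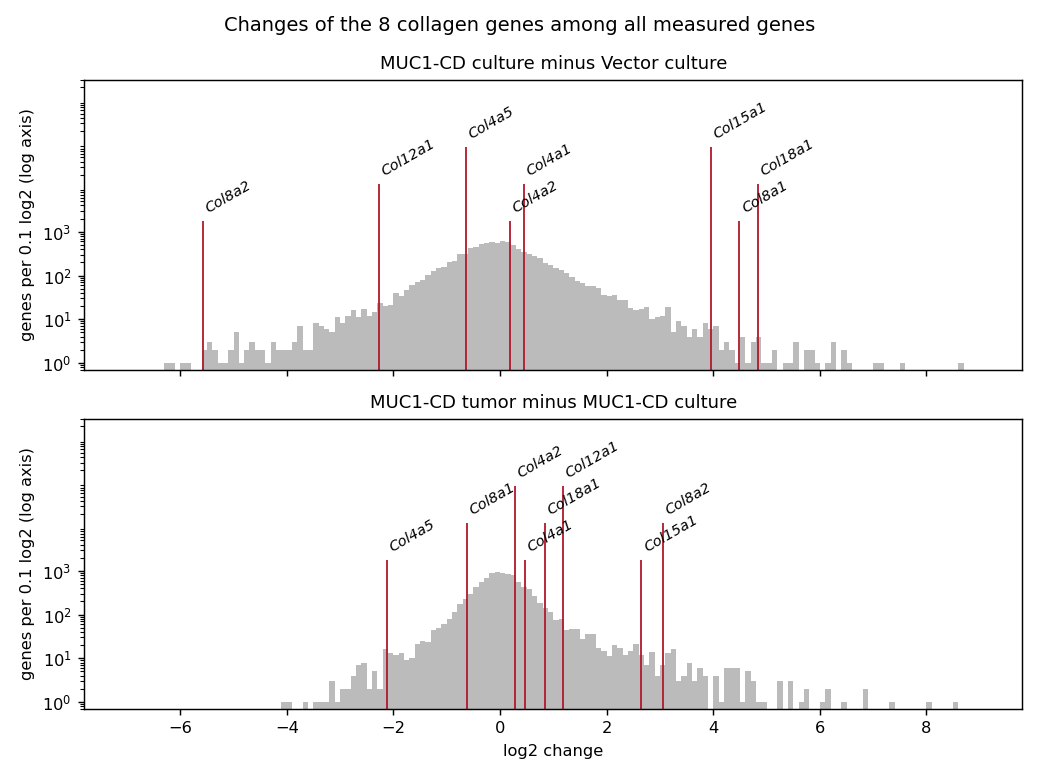
Histogram of the log2 change of 10037 genes (grey, count per 0.1 log2 on a log axis), with red lines at the 8 collagen genes, whose heights only space the names. In culture against Vector, Col8a2 lies at -5.58 and Col18a1 at 4.84, while Col4a2 lies at 0.18 near the centre.

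Most measured markers of endothelium, skeletal muscle and macrophages rose in tumors against MUC1-CD culture, where 9.82% of all genes rose. Measured genes are those whose mean over the 6 arrays passed the filter. Flt1, Tek, Acta1, Atp2a1, Tnnc2, Ckm, Aif1, C1qa, C1qb, Cd68 and Cdh1 were below the filter level on every culture array. They passed it only through their tumor signals, so a higher signal in tumors was fixed by that selection. Counts of markers that rose are therefore no test. In bulk samples a change in the number of cells of a type and in RNA per cell cannot be told apart. Of 4 measured endothelial markers, 3 rose in tumors against MUC1-CD culture: Flt1 by 2.50 ± 0.24, Esam by 1.48 ± 0.29 and Tek by 1.25 ± 0.26 (limma adjusted p = 0.00118, 0.0175 and 0.0228). The other, Egfl7, had 148 and 205 in tumors against 226 and 322 in MUC1-CD cultures, a change of -0.59 ± 0.24 that was not called (limma adjusted p = 0.154). The summed signal of the 11 endothelial markers with a probe set was 1392 to 1525 in tumors, 561 to 589 in MUC1-CD cultures and 550 to 564 in Vector cultures. Of these 11, Kdr, Pecam1 and Vwf were below the filter level on both tumor arrays, and 9 were below it on both arrays of each culture group. Vessels are a known source of type IV, VIII, XV and XVIII collagen, and the part of the endothelium in the tumor values of these genes was not tested.

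Of 5 measured skeletal muscle markers 5 rose in tumors, with Acta1 at 5413 ± 625 in tumors and 4.40 ± 0.99 in MUC1-CD cultures (SD, n = 2). Of these 5, only Actn3 exceeded the filter level on any culture array, so the others were counted only through their tumor signals. Acta1 rose by 8.05 ± 0.30 (limma adjusted p = 7.8e-05). The summed signal of the 7 muscle markers was 7162 to 8027 in tumors, 78.2 to 179 in MUC1-CD cultures and 224 to 237 in Vector cultures. Of 5 measured macrophage markers 4 rose, led by Aif1 (5.26 ± 0.33), C1qa (4.06 ± 0.25) and C1qb (3.29 ± 0.37), with limma adjusted p = 0.00028 to 0.00229. All 4 were below the filter level on every culture array. The 8 macrophage markers summed to 5303 to 5462 in tumors, 2999 to 3178 in MUC1-CD cultures and 614 to 684 in Vector cultures, and Adgre1 and Itgam were below the filter level in all groups. Most of the culture sums was Cd14, a receptor for bacterial lipopolysaccharide, with 2828 and 3052 in MUC1-CD cultures against 594 and 464 in Vector cultures. It was the 1 macrophage marker of 5 that rose in culture against Vector, by 2.45 ± 0.14 (limma adjusted p = 7.29e-05). Of 6 epithelial markers, Epcam, Krt14, Krt18 and Krt8 were below the filter level on both tumor arrays, and the 6 had a sum of 637 to 666 in tumors, 68.2 to 89.7 in MUC1-CD cultures and 523 to 537 in Vector cultures. Krt8 changed by -3.02 ± 0.23 in culture against Vector (limma adjusted p = 0.000178). It was below the filter level on every tumor and MUC1-CD culture array and passed only through its Vector signals. Of the 2 measured, 1 rose in tumors against MUC1-CD culture, Cdh1 (E-cadherin), by 4.70 ± 0.29 (limma adjusted p = 0.000281). Krt8 had a change of 0.26 ± 0.23 there (limma adjusted p = 0.5).

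Of 7 pericyte markers 2 were measured, and 1 of them, Cspg4, rose in culture against Vector. Cspg4, the NG2 proteoglycan, had 583 and 662 in tumors and 931 and 855 in MUC1-CD cultures, against 3.9 and 3.3 in Vector cultures, and rose by 5.53 ± 0.17 (limma adjusted p = 1.04e-05). Cspg4 passed the filter only through tumor and MUC1-CD culture signals, which favored a lower signal in Vector cultures. Des had a change of 0.71 ± 0.25 that was not called (limma adjusted p = 0.0542). The 7 pericyte markers summed to 1228 to 1254 in tumors, 1284 to 1355 in MUC1-CD cultures and 243 to 367 in Vector cultures, sums of which Cspg4 was the larger share in MUC1-CD cultures. The part of the muscle, macrophage, epithelial and pericyte signals in the collagen values was not tested, nor was the binding of mouse RNA to these rat probe sets.

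Of 10 measured fibrillar and network collagens, 2 rose and 6 fell in MUC1-CD culture against Vector, where 21.2% of all genes rose and 24.9% fell. Their median was -0.71. Col11a1, a minor chain of cartilage fibrils, changed by -5.40 ± 0.23, Col3a1 by -1.48 ± 0.08 and Col1a1 by -1.39 ± 0.12 (limma adjusted p = 2.74e-05 to 0.000255), while Col5a1, which starts fibril growth, rose by 1.13 ± 0.29 and Col6a3 by 0.62 ± 0.19. In tumors 7 of the 10 rose and 0 fell by limma (9 and 0 at an unadjusted p under 0.05), where 9.82% of all genes rose and 8.97% fell. The median was 1.16. The rises were led by the microfibril collagen VI genes Col6a1 (7.40 ± 0.35), Col6a2 (6.86 ± 0.23) and Col6a3 (5.47 ± 0.19), with limma adjusted p = 6.41e-05 to 0.000139. Col6a1 and Col6a2 were below the filter level on every culture array and were counted only through their tumor signals. Col5a3 had 356 and 366 in tumors, 5 and 2.7 in MUC1-CD cultures and 82.6 and 67 in Vector cultures. Its mean over the culture arrays was below the filter level, so it too was counted only through its tumor signals. Col11a1 was below that level on every tumor and MUC1-CD culture array and was counted only through its Vector signals. Of 5 other basement membrane collagens only Col17a1, the transmembrane collagen of hemidesmosomes, passed the filter. It had 196 and 156 in tumors, 43.7 and 14.9 in MUC1-CD cultures and 18.8 and 22.1 in Vector cultures. Col17a1 thus passed only through its tumor signal, so a higher signal there was fixed in advance. The rise was 2.15 ± 0.38 in tumors against MUC1-CD culture (limma adjusted p = 0.0128). Of 9 other fibril-associated collagens, 2 passed the filter, and Col9a2 and Col16a1 had changes of -0.28 ± 0.52 and -0.20 ± 0.15 in culture against Vector and of 0.02 ± 0.52 and -0.17 ± 0.15 in tumors against culture, none of them called.

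The partners of type IV collagen in the basement membrane split in culture. Of 12 measured laminins, nidogens and proteoglycans, 5 rose and 5 fell in MUC1-CD culture against Vector, where 21.2% of all genes rose and 24.9% fell. Their median was -0.15. Nid1, the linker between the laminin and collagen IV nets, had signals of 2770 and 2643 in MUC1-CD cultures against 698 and 600 in Vector cultures and rose by 2.04 ± 0.12 (limma adjusted p = 7.04e-05). The laminin chains Lama3 and Lama4 rose by 2.92 ± 0.20 and 3.93 ± 0.35, while Lama5 changed by -2.26 ± 0.20, Lamb2 by -1.43 ± 0.16 and Sparc, a collagen-binding protein, by -0.98 ± 0.09 (limma adjusted p = 0.000124 to 0.000762). Lama3 and Lama4 had Vector means below the filter level and passed it only through tumor and MUC1-CD culture signals. In tumors 5 of the 12 rose and 0 fell by limma (5 and 0 at an unadjusted p under 0.05), where 9.82% of all genes rose and 8.97% fell. Their median was 0.42. Nid2 rose by 2.86 ± 0.13, Nid1 by 0.99 ± 0.12 and Sparc by 0.94 ± 0.09 (limma adjusted p = 0.000125 to 0.00321).

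Of 15 measured genes that process collagen chains in the endoplasmic reticulum, 2 rose and 4 fell in MUC1-CD culture against Vector, with a median of -0.14. There 21.2% of all genes rose and 24.9% fell. In tumors against culture 1 rose and 3 fell, with a median of 0.01, where 9.82% of all genes rose and 8.97% fell. The prolyl hydroxylase subunit gene P4ha3 changed by -1.45 ± 0.12, P3h3 by -1.58 ± 0.16 and P3h4 by -1.11 ± 0.15 in culture, while the lysyl hydroxylase gene Plod2 rose by 1.18 ± 0.19 and Mia3 by 0.40 ± 0.10 (limma adjusted p = 0.000219 to 0.0168). In tumors P3h3 rose by 1.52 ± 0.16, and P4ha1 changed by -0.72 ± 0.11, P4ha2 by -0.55 ± 0.12 and Mia3, an export receptor for large collagens, by -0.51 ± 0.10 (limma adjusted p = 0.00195 to 0.0243).

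Among 14 measured genes of collagen crosslinking, processing and remodelling, 2 rose and 5 fell in culture against Vector, where 21.2% of all genes rose and 24.9% fell. Their median was -0.24. The stromelysin gene Mmp3 rose by 6.48 ± 0.13 and Loxl2, a lysyl oxidase that crosslinks type IV collagen, by 2.67 ± 0.17, with Loxl2 signals of 1440 and 1593 in MUC1-CD cultures against 258 and 195 in Vector cultures (limma adjusted p = 2.16e-06 and 8.53e-05). Timp2, an inhibitor of metalloproteinases, changed by -1.13 ± 0.07 Pcolce, an enhancer of procollagen processing, by -1.33 ± 0.14, and Mmp2, a gelatinase that cuts type IV collagen, by -1.32 ± 0.20 (limma adjusted p = 8.5e-05 to 0.00213). In tumors 5 of the 14 rose and 1 fell, with a median of 0.35, where 9.82% of all genes rose and 8.97% fell. Mmp2 had 2139 and 2294 in tumors against 30.6 and 20.4 in MUC1-CD cultures and rose by 5.76 ± 0.20 (limma adjusted p = 6.41e-05). The metalloproteinase inhibitor gene Timp3 rose by 3.04 ± 0.51 and the procollagen proteinase gene Bmp1 by 0.88 ± 0.14, and Lox changed by -0.65 ± 0.08 (limma adjusted p = 0.00411 to 0.0107). Timp3 was below the filter level on every culture array and was counted only through its tumor signal. Mmp2 had 86.5 and 86.9 in Vector cultures. Its mean over the culture arrays was below the filter level, so Mmp2 was likewise counted only through its tumor signals. Pxdn, the peroxidase that forms the sulfilimine bond of type IV collagen, was not called in either comparison (-0.18 ± 0.13 and -0.09 ± 0.13).

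Of 9 measured receptors for collagen and basement membrane, 5 rose and 1 fell in MUC1-CD culture against Vector, where 21.2% of all genes rose and 24.9% fell. Their median was 0.67. The laminin-binding integrin genes Itga6, Itga3 and Itgb4 rose by 1.47 ± 0.17, 1.28 ± 0.15 and 1.50 ± 0.17, and the collagen receptor kinase gene Ddr2 changed by -0.61 ± 0.10 (limma adjusted p = 0.000727 to 0.00273). In tumors 2 of the 9 rose and 3 fell, with a median of -0.35, where 9.82% of all genes rose and 8.97% fell. Itga1, the chain of the integrin that binds type IV collagen, had 1329 and 1234 in tumors against 381 and 446 in MUC1-CD cultures and rose by 1.60 ± 0.22 (limma adjusted p = 0.00552), and Itgb4 rose by 1.05 ± 0.17. Itga7 changed by -1.39 ± 0.20, Itga3 by -0.99 ± 0.15 and Ddr2 by -0.40 ± 0.10 (limma adjusted p = 0.00571 to 0.036).

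**Figure D4:**
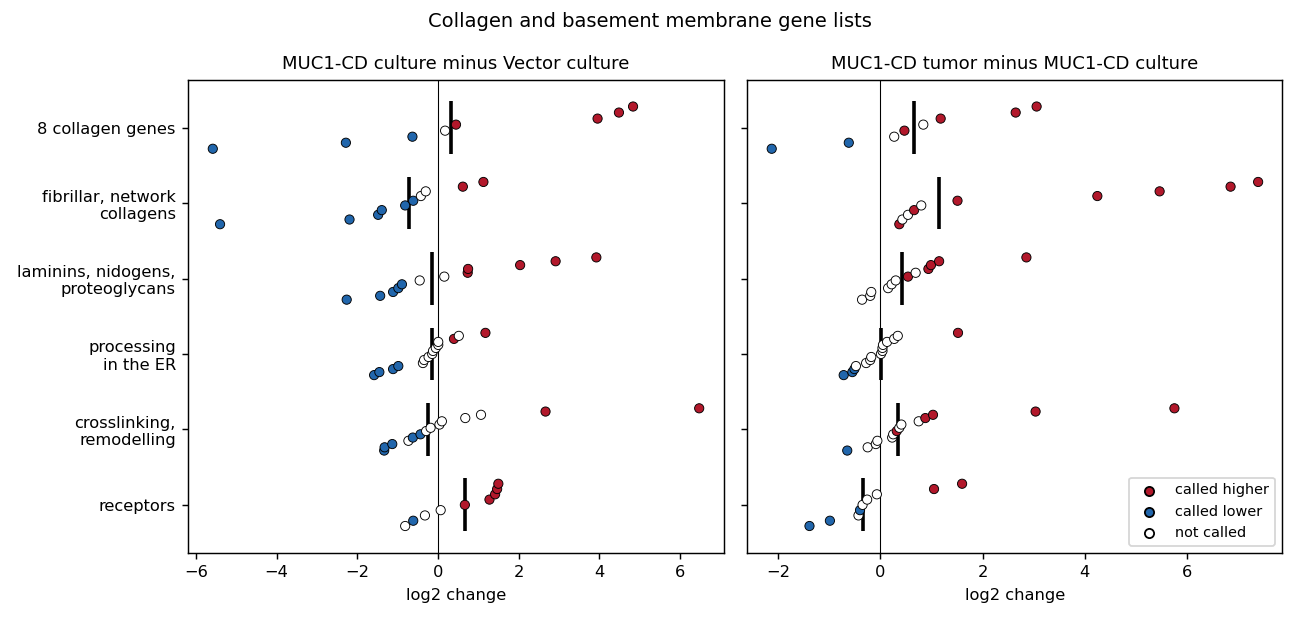
Log2 change (x axis) of every measured gene of the 8 collagen genes and of 5 related lists, with red for called higher, blue for called lower, white for not called and a black bar at the list's median. The median of the fibrillar and network collagens is -0.71 in culture against Vector and 1.16 in tumors against culture.

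Tumors against Vector cultures combined both steps, and all 8 genes passed the test, where 51.4% of genes did (24.8% higher and 26.6% lower). Of the 11 kept probe sets 8 rose and 3 fell, where 51.5% passed (29.1% higher and 22.4% lower). Col15a1, Col18a1, Col8a1, Col4a1 and Col4a2 rose, and Col4a5, Col8a2 and Col12a1 fell. Col4a1 rose by 0.92 ± 0.12 (limma adjusted p = 0.000917). The order of tumors, MUC1-CD cultures and Vector cultures differed between the genes. Tumors were highest for Col15a1, Col18a1, Col4a1 and Col4a2, MUC1-CD cultures were highest for Col8a1, and Vector cultures were highest for Col8a2, Col12a1 and Col4a5. Neighbours in this order whose difference was not called were MUC1-CD and Vector cultures for Col4a2, and tumors and MUC1-CD cultures for Col4a2 and Col18a1.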

How the data were processed

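The members and lists were chosen with earlier results of these data known. Per the labels, total RNA was labelled with biotin by the standard Affymetrix protocol. The deposited intensity values are MAS5 signals per the submitters' processing notes, and each array had the same trimmed mean (500.2, with 2% trimmed at each end). No MAS5 version or detection call was used here.

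Of 31042 probe sets other than controls, 20826 named 1 gene, 436 named several and 9780 are unnamed here, and 20758 of these were matched to GRCr8 symbols by Entrez identifier. Log2(signal + 16) values of 18625 probe sets with a mean signal at or above the 40th percentile (61.6) entered limma 3.58.1 (R 4.3.3; lmFit, eBayes with a trend, group as the only term, all 6 arrays, 3 residual degrees of freedom). Of several kept probe sets, the one of highest mean signal stood for the gene. Tests were 2-sided at an adjusted p of 0.05. The fit was tested on simulated data in which all groups shared a common spread per probe set. The Vector replicates differed more than those of the other groups, so that test does not cover unequal spreads. Promoters came from RefSeq (GRCr8) and matched 7 of 8 members. Named genes are the members and, per list and comparison, up to 3 called genes of smallest p in each direction. Named outside that rule, after their values were seen, are Pxdn, Col9a2, Col16a1, Col5a3 and the markers that were not called or lie below the filter, with Fn1 and S100a4 as members of the fibroblast list. Alternatives were other pseudocounts, filters, scalings and weights, a replicate block, fits of 2 groups and leaving out each array. The number of arrays limits precision.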

Additional observations from a re-analysis of the deposited data

How the results depend on the processing

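Over 123 alternative values of the 8 genes' changes per comparison, 114 kept direction and call in MUC1-CD culture against Vector, 97 in tumors against MUC1-CD culture and 113 in tumors against Vector. Col4a2 reversed with division by the array median, to -0.13 in culture against Vector and -0.13 in tumors against Vector. In tumors against culture, the number of members that rose was 1 to 5 when each array was left out, and the number that fell 1 to 2; each tumor or MUC1-CD culture array left out gave 1 and 1, with the spread of the single remaining array taken from the other groups, and each Vector array left out gave 5 and 2. The number that fell there was also 1 with quantile normalization and 1 with the replicate block. In tumors against Vector 3 members rose with median scaling, where 5 rose with the deposited scaling. In tumors against culture, Col12a1 and Col15a1 were not called when any array of either group was left out, nor was Col4a1 without the filter (limma adjusted p = 0.0517) or with the block (limma adjusted p = 0.06). The labels do not say whether arrays with the same replicate number are pairs. Differences between replicates correlated between groups at -0.0184, -0.0445 and -0.027, so no shared effect of the number was seen. The block left 2390 probe sets called in tumors against culture, where 2952 were called without it. Fits of the compared arrays alone called 8049 probe sets there, array weights 7798, and leaving out an array 607 to 8048. In culture against Vector 4413 and 4754 were called without MUC1-CD culture replicate 2 or 1, against 8522, and in tumors against Vector 5958 and 6093 without tumor replicate 1 or 2, against 9589. Of all calls, 33.7%, 22.9% and 25.7% were higher under median scaling in culture against Vector, tumors against culture and tumors against Vector, where the deposited scaling gave 54.7%, 53.9% and 56.5%. Differences between replicates had an SD of 0.284 log2 in tumors and 0.257 in MUC1-CD cultures, against 0.616 in Vector cultures.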
